A study of Mus musculus with 2 samples.

Results

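The proliferation and cell cycle genes described here are 35 named genes of the 32285 in the gene list, chosen by name, and 35 of 35 were found in both matrices. They comprise 14 genes of S-phase and nucleotide supply, 16 genes of mitosis, 3 broadly expressed genes abundant in dividing cells (Stmn1, Hmgb2 and Tubb5) and 2 D-type cyclins (Ccnd2 and Ccnd3). They were read in single CD45-positive cells sorted from hepatocellular carcinomas of mice of the genotype MYC-ON, which both groups carried. The mice had received STK or, as the control, DMSO, by gavage. What STK is, its dose and duration, the promoter or cell type behind MYC-ON, and the sex, age and number of the animals are not given in the labels, and each group is 1 library of 10x Genomics 5′ chemistry. Barcodes entered with 500 or more UMIs (unique molecular identifiers, each counting 1 captured transcript), 250 or more genes and no more than 10% of UMIs from mitochondrial genes. The analysis held 10846 STK cells and 11152 DMSO cells, with medians of 4930.5 UMIs in STK and 4471.5 UMIs in DMSO.

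A dividing cell passes through gene programs in a fixed order. D-type cyclins bind CDK4 and CDK6 in response to growth signals and release E2F factors, which switch on cyclin E, the MCM helicase that opens DNA, and the enzymes that make nucleotides. Later the MuvB complex with B-MYB and FOXM1 drives genes of chromosome condensation, the spindle and the anaphase-promoting complex. In a tumour these transcripts mark growing tumour cells and also lymphocytes that expand after antigen contact, whereas mature neutrophils no longer divide and serve here as the class that should lack them.

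The promoters show letters known from these programs. RefSeq promoters (GRCm38.p6, 250 bases before to 50 bases after the start) were at hand for 29 members, the others being Ccne2, Mcm4, Ccna2, Aurkb, Stmn1 and Ccnd2. An E2F word (TTTCGCGC, TTTGGCGC, TTTCCCGC or TTTGGCGG, either strand, matches may overlap) was present in 5 of 12 S-phase members, 1 of 14 mitotic members and 2.37% of all 32851 promoters. A cell cycle homology region (CHR, searched as TTTGAA or TTCGAA on either strand) was present in 10 of 14 mitotic members and 2 of 12 S-phase members, against 19.2% of all promoters. A CCAAT box (CCAAT, either strand) was present in 12 of 14 mitotic and 9 of 12 S-phase members, against 37.4% of all promoters. CHR and CCAAT stood together in 10 of 14 mitotic members and in 7.52% of all promoters. The promoters of 6 members are shown because they hold the different combinations, with every match in capitals. Top2a at chr11:99024140-99024439 (minus strand), Ube2c at chr2:164769679-164769978 (plus strand) and Cdc20 at chr4:118437294-118437593 (minus strand) hold CHR and CCAAT, and Cdk1 at chr10:69352863-69353162 (minus strand) holds these and an E2F word. Pclaf at chr9:65890073-65890372 (plus strand) and Mcm6 at chr1:128359656-128359955 (minus strand) hold E2F words and CCAAT.
Top2a: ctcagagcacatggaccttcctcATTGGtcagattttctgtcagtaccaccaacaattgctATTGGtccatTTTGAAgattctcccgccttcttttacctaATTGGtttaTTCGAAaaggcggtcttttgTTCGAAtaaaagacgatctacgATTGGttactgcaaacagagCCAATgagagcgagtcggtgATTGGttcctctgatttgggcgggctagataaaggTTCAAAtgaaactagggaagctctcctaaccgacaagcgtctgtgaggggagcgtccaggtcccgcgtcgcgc
Ube2c: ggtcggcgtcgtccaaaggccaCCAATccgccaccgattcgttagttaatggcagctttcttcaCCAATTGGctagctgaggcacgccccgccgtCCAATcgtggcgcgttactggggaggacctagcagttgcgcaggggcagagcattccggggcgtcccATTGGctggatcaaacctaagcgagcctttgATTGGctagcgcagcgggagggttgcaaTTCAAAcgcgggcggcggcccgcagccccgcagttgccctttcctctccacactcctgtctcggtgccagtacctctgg
Cdc20: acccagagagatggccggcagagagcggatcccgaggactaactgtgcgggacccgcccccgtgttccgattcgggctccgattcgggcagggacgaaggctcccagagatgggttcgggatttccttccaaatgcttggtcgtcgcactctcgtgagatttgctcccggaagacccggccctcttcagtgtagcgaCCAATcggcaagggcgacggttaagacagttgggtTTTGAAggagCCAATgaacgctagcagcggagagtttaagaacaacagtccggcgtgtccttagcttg
Cdk1: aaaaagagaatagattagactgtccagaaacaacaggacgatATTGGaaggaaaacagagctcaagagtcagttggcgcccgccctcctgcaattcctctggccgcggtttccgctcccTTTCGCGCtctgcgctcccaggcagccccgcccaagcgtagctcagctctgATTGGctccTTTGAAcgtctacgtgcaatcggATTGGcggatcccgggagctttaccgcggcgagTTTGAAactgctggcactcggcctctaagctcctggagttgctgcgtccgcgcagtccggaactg
Pclaf: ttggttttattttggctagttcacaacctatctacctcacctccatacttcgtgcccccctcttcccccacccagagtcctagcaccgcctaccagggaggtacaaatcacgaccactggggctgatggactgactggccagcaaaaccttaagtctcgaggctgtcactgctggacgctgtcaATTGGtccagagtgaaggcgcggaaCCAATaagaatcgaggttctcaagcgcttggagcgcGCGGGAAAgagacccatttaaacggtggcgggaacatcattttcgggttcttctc
Mcm6: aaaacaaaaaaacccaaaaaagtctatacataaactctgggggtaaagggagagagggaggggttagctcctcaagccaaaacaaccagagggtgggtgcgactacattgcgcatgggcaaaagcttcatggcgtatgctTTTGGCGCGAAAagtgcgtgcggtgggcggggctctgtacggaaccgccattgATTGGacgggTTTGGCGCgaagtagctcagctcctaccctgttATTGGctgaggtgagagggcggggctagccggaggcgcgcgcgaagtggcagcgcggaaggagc
A match is a letter pattern in this window and no evidence of binding.

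Each cell was thinned to 1000 UMIs, so that deep and shallow cells could be compared, and called cycling when 3 or more of those UMIs came from the 30 S-phase and mitotic members. Cells under 1000 UMIs, 549 in STK and 717 in DMSO, could not be called. Cell types were gated on 6 marker genes for each of 13 lineages, and the names below are names of gates. Cells that met no gate made up 30.02% of kept cells in STK and 33.5% in DMSO. The hepatocyte or tumour gate went against the CD45 sort, since Ptprc, the gene of CD45, had a UMI in 5.67% of its cells in STK and 4.24% in DMSO, and in 93.5% of CD8 T cells in STK and 91.3% in DMSO. The libraries shared 203 barcodes, 183 of them kept in both. Of the cells that could be sexed by Xist or Y-linked UMIs, 74.0% in STK and 18.8% in DMSO were female, so each library held more than 1 animal, and sex mix and treatment cannot be told apart between libraries. Each group being 1 library, there is no replicate error and nothing was tested, and the 95% intervals below cover counting error only. Intervals of summed or single-gene CPM ratios treat each UMI as independent. They leave out variation between cells of a library, so they can be too narrow.

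Over all kept cells the share of cycling cells was nearly the same in both libraries, at 16.7% in STK (15.98% to 17.4%, 1719 of 10297) and 16.3% in DMSO (15.6% to 17.0%, 1699 of 10435), a ratio of 1.03 (0.958 to 1.10). Within male cells it was lower in STK, at 16.1% in STK (256 of 1592) and 20.4% in DMSO (888 of 4360), a ratio of 0.790 (0.684 to 0.908), and within female cells it was 22.3% in STK (1009 of 4515) and 21.1% in DMSO (207 of 980), a ratio of 1.06 (0.910 to 1.23). Cells with no Xist or Y-linked UMI, 4318 in STK and 5564 in DMSO, could not be sexed. They were shallower than the sexed cells, with medians of 3117.5 UMIs in STK and 3231 UMIs in DMSO. Their cycling shares were 9.83% in STK and 11.5% in DMSO. Shares within the sexes therefore cover deeper cells that cycled more, and do not split the all-cell shares. The part of sex was not tested. With each type weighted alike in both libraries the share over all kept cells was 16.6% in STK and 16.3% in DMSO. Without thinning, where cells were called by the share of their UMIs, it was 14.6% in STK and 14.3% in DMSO. S-phase members summed to 1007 CPM in STK and 989 CPM in DMSO (CPM, UMIs scaled to a fixed total per library and type), and mitotic members to 1221 CPM in STK and 1267 CPM in DMSO. Over all kept cells 0 of 35 members were 1.5-fold higher or lower in STK, where 9.79% of all genes were higher and 9.88% lower. The members furthest from equal were Pclaf, a PCNA-binding factor of replication, at 101 CPM in STK and 71.5 CPM in DMSO, a ratio of 1.41 (1.36 to 1.46), and Cdc20, an activator of the anaphase-promoting complex, at 61.9 CPM in STK and 85.4 CPM in DMSO, a ratio of 0.725 (0.699 to 0.753).

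**Figure D1:**
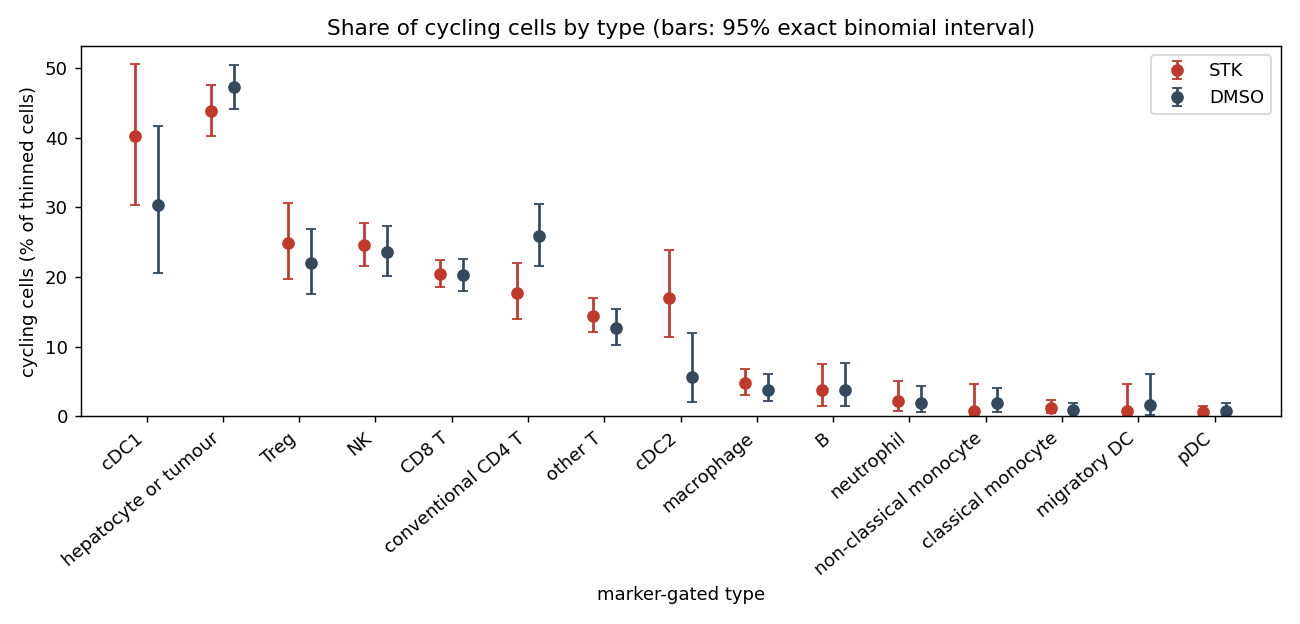
Percentage of thinned cells called cycling (y axis) in each gated type (x axis), STK left of DMSO, with 95% exact binomial intervals from 1 library per group. CD8 T cells lie at 20.5% in STK and 20.3% in DMSO, while type 2 conventional dendritic cells (cDC2) lie at 17.0% in STK and 5.66% in DMSO.

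Cycling cells were frequent among T and NK cells and among type 1 conventional dendritic cells (cDC1, which present antigen to CD8 T cells). CD8 T cells gave 20.5% in STK (351 of 1714) and 20.3% in DMSO (253 of 1248), a ratio of 1.01 (0.857 to 1.19). Regulatory T cells (Treg), gated by Foxp3, gave 24.9% in STK (64 of 257) and 22.0% in DMSO (71 of 323), a ratio of 1.13 (0.795 to 1.61). NK cells gave 24.6% in STK (198 of 805) and 23.6% in DMSO (135 of 572), a ratio of 1.04 (0.833 to 1.31). In these lymphocytes each ratio's interval included 1, but the ratios lay on opposite sides of 1 within the sexes. Female CD8 T cells gave 27.6% in STK (183 of 663) and 16.1% in DMSO (15 of 93), a ratio of 1.71 (1.01 to 3.12), and male CD8 T cells 21.7% in STK (68 of 314) and 27.0% in DMSO (146 of 540), a ratio of 0.801 (0.592 to 1.08). Female NK cells gave 40.9% in STK (149 of 364) and 30.9% in DMSO (17 of 55), a ratio of 1.32 (0.800 to 2.33), and male NK cells 17.2% in STK (16 of 93) and 28.0% in DMSO (68 of 243), a ratio of 0.615 (0.333 to 1.07). Female Treg gave 41.0% in STK (34 of 83) and 14.3% in DMSO (2 of 14), a ratio of 2.87 (0.735 to 24.6), and male Treg 24.6% in STK (16 of 65) and 28.0% in DMSO (46 of 164), a ratio of 0.878 (0.464 to 1.58). Of these 6 intervals the one of female CD8 T cells lay above 1 and the others included 1. cDC1 gave 40.2% in STK (39 of 97) and 30.4% in DMSO (24 of 79), a ratio of 1.32 (0.776 to 2.30), again with an interval that included 1. The remaining T cells, with no UMI of these subset genes or with both CD8 and Foxp3 UMIs, gave 14.4% in STK (119 of 827) and 12.7% in DMSO (83 of 655), a ratio of 1.14 (0.851 to 1.52).

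Most other immune types had few cycling cells. Neutrophils, with median depths of 1326 UMIs in STK and 1296 UMIs in DMSO, gave 2.23% in STK (0.729% to 5.13%, 5 of 224) and 1.92% in DMSO (0.625% to 4.41%, 5 of 261), against median depths of 3764.5 UMIs in STK and 4160.5 UMIs in DMSO for CD8 T cells. Classical monocytes (1.17% in STK and 1.00% in DMSO), non-classical monocytes (0.855% in STK and 1.88% in DMSO), migratory dendritic cells (0.847% in STK and 1.71% in DMSO) and plasmacytoid dendritic cells (0.609% in STK and 0.820% in DMSO) lay at or below the neutrophil level, which is read as background. B cells gave 3.74% in STK (1.52% to 7.56%, 7 of 187) and 3.83% in DMSO (1.55% to 7.72%, 7 of 183), and macrophages 4.74% in STK (3.14% to 6.82%, 27 of 570) and 3.84% in DMSO (2.25% to 6.07%, 17 of 443), with intervals that overlapped those of neutrophils.

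**Figure D2:**
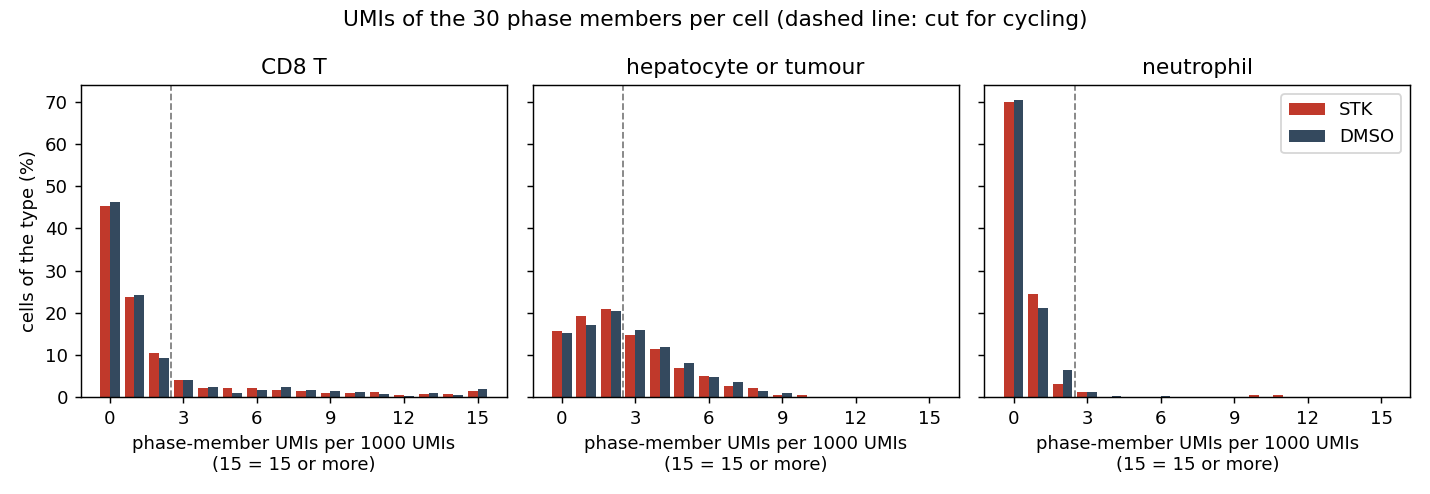
UMIs of the 30 phase members per cell thinned to 1000 UMIs (x axis, last bin 15 or more) against the percentage of cells of the type (y axis), STK left of DMSO, with the threshold for cycling marked. CD8 T cells have a long tail, with 5.60% of cells in STK and 5.61% in DMSO at 10 or more, and hepatocyte or tumour cells have 0.686% of cells in STK and 0.306% in DMSO there.

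The hepatocyte or tumour cells gave 43.9% in STK (320 of 729) and 47.3% in DMSO (464 of 981), a ratio of 0.928 (0.802 to 1.07), but their values lay around the threshold. In this type 260 of 729 STK cells and 357 of 981 DMSO cells held 2 or 3 phase UMIs, and among CD8 T cells 249 of 1714 STK cells and 167 of 1248 DMSO cells. Cells with 10 or more made up 0.686% of hepatocyte or tumour cells in STK and 0.306% in DMSO, and 5.60% of CD8 T cells in STK and 5.61% in DMSO. In the thinned counts the called share of the hepatocyte or tumour gate is therefore a position in a range. Before thinning, cells of this gate had median depths of 24595 UMIs in STK and 25603 UMIs in DMSO, so thinning left out most of their UMIs. Whether they hold a separate group of cycling cells at full depth was not tested. Cycling CD8 T cells were also deeper, with medians of 8080 UMIs in STK and 7968 UMIs in DMSO, than the other CD8 T cells, with 3381 UMIs in STK and 3729 UMIs in DMSO.

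Conventional CD4 T cells, gated by Cd4 without Foxp3 or CD8 UMIs, and cDC2, which present antigen mainly to CD4 T cells, differed in opposite directions. They were singled out after their values were seen. Conventional CD4 T cells gave 17.8% in STK (66 of 371) and 25.8% in DMSO (99 of 383), a ratio of 0.688 (0.496 to 0.949). cDC2 gave 17.0% in STK (26 of 153) and 5.66% in DMSO (6 of 106), a ratio of 3.002 (1.21 to 8.92). Among cDC2, 21 of 153 STK cells and 12 of 106 DMSO cells held 2 or 3 phase UMIs.

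In cDC2 the member genes differed with the called share: 21 of 34 measured members were at least 1.5-fold higher in STK and 1 lower, where 12% of all genes were higher and 17.4% lower. The cycling call counts UMIs of 30 of these members in the same cells, so the member values are no independent check of it. Their median log2 ratio was 0.70, and that of all genes -0.05. Of the mitotic members 13 of 16 were higher and 1 lower, and they summed to 838 CPM in STK and 385 CPM in DMSO, a ratio of 2.18 (1.93 to 2.47). Of the S-phase members 6 of 13 were higher, and they summed to 864 CPM in STK and 639.7 CPM in DMSO, a ratio of 1.35 (1.22 to 1.496). Mki67, a surfactant of mitotic chromosomes and the usual proliferation marker, was at 125 CPM in STK (193 UMIs) and 40.9 CPM in DMSO (34 UMIs), a ratio of 3.06 (2.12 to 4.55). Top2a, the topoisomerase that untangles sister chromatids, was at 127 CPM in STK and 61.3 CPM in DMSO, a ratio of 2.06 (1.51 to 2.87). Ube2c, the ubiquitin-conjugating enzyme of the anaphase-promoting complex, was at 123 CPM in STK and 46.9 CPM in DMSO, a ratio of 2.63 (1.86 to 3.81). Among S-phase members Mcm4, a subunit of the MCM helicase, was at 72.0 CPM in STK and 40.9 CPM in DMSO, a ratio of 1.76 (1.19 to 2.67), and Mcm5, another subunit, at 64.3 CPM in STK and 63.7 CPM in DMSO, a ratio of 1.01. Cenpa, the histone variant of centromeres, was at 97.4 CPM in STK and 39.7 CPM in DMSO, a ratio of 2.45. Plk1, a kinase of mitotic entry, was the member counted as lower, at 7.79 CPM in STK (12 UMIs) and 14.4 CPM in DMSO (12 UMIs).

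Before thinning, mitotic UMIs were found in 106 of 153 STK cDC2 and in 50 of 106 DMSO cDC2, but a few cells held much of the total. The median depths of cDC2 were 9562 UMIs in STK and 7351 UMIs in DMSO, and the part of depth was not tested. The 5 richest cells held 35.9% of the mitotic UMIs in STK and 75% in DMSO. Without the 2 richest cells of each library mitotic members stood at 683 CPM in STK and 206 CPM in DMSO. Of the sexed cDC2 61.4% in STK (70 cells) and 10.0% in DMSO (6 cells) were female, too few in DMSO to compare. Among male cDC2 the cycling share was 25.0% in STK (11 of 44) and 7.41% in DMSO (4 of 54). The male ratio was 3.38 (1.00 to 14.5). With sex set by the larger of Xist and Y-linked UMIs it was 3.3 (0.978 to 14.2), an interval that included 1. The 12 dissociation and heat-shock genes summed to 5518 CPM in STK and 11443 CPM in DMSO in cDC2, with 1 of 12 higher and 9 lower, and their part in the result was not tested.

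In conventional CD4 T cells the members differed the other way: 0 of 35 measured members were at least 1.5-fold higher in STK and 8 lower, where 10.6% of all genes were higher and 13.9% lower. Here too the members are not independent of the called share, which is made from 30 of them. Their median log2 ratio was -0.39, and that of all genes -0.06. S-phase members, 6 of 14 lower, summed to 1317 CPM in STK and 1923 CPM in DMSO, a ratio of 0.685 (0.649 to 0.723). The 5 richest cells held 17.3% of these UMIs in STK and 15.9% in DMSO, which that interval does not take into account. Mitotic members, 2 of 16 lower, summed to 2109 CPM in STK and 2588 CPM in DMSO, a ratio of 0.815 (0.780 to 0.852). Within female cells the S-phase ratio turned to 1.60, and within male cells it was 0.612. Mitotic ratios were 0.941 within female and 0.943 within male cells. The lower S-phase members included 4 subunits of the MCM helicase, of which Mcm3 was at 79.5 CPM in STK and 153 CPM in DMSO, a ratio of 0.521 (0.420 to 0.645). Mcm6 was at 133 CPM in STK and 253 CPM in DMSO, a ratio of 0.524 (0.443 to 0.617). Mcm5 and Mcm7 had ratios of 0.568 and 0.633. The others were Ccne1 (cyclin E1), at 11.9 CPM in STK and 27.7 CPM in DMSO, a ratio of 0.429, and Tk1, the thymidine salvage kinase, at 62.6 CPM in STK and 103 CPM in DMSO, a ratio of 0.608. The lower mitotic members were Plk1, at 34.4 CPM in STK and 75.2 CPM in DMSO, a ratio of 0.458 (0.329 to 0.629), and Bub1, a spindle checkpoint kinase, at 16.3 CPM in STK and 29.3 CPM in DMSO, a ratio of 0.555. Pcna, the sliding clamp of DNA polymerase, was level at 150.2 CPM in STK and 149 CPM in DMSO. Of the cycling cells 59.1% in STK and 45.5% in DMSO held more mitotic than S-phase UMIs. Within female cells the cycling share ran the other way, at 28.1% in STK (32 of 114) and 22.2% in DMSO (8 of 36), and within male cells it was 19.4% in STK (14 of 72) and 37.6% in DMSO (53 of 141). The part of sex in this difference was not tested.

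In CD8 T cells, Treg and NK cells few members passed 1.5-fold. In CD8 T cells 0 of 35 measured members were at least 1.5-fold higher in STK and 0 lower, where 9.12% of all genes were higher and 8.09% lower. In Treg 1 of 35 measured members were at least 1.5-fold higher in STK and 0 lower, where 9.16% of all genes were higher and 11% lower. In NK cells 0 of 35 measured members were at least 1.5-fold higher in STK and 1 lower, where 8.5% of all genes were higher and 11.1% lower. The Treg member was Pcna, at 169.6 CPM in STK (272 UMIs) and 113 CPM in DMSO (211 UMIs), a ratio of 1.504 (1.25 to 1.81), and with doublets left out 0 Treg members passed. The NK member was Ccne1, at 11.5 CPM in STK (50 UMIs) and 18.2 CPM in DMSO (55 UMIs), a ratio of 0.632. Mki67 was at 226 CPM in STK and 192 CPM in DMSO, a ratio of 1.17, in CD8 T cells. It was at 256 CPM in STK and 255 CPM in DMSO in Treg and at 291 CPM in STK and 290.3 CPM in DMSO in NK cells. Top2a was at 236 CPM in STK and 229 CPM in DMSO in CD8 T cells, 263 CPM in STK and 278 CPM in DMSO in Treg and 284 CPM in STK and 264 CPM in DMSO in NK cells.

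Within CD8 T cells the S-phase members furthest from equal were Pcna, Mcm4 and Rrm2, the small subunit of ribonucleotide reductase. Pcna was at 165 CPM in STK and 127 CPM in DMSO, a ratio of 1.30 (1.19 to 1.42). Mcm4 was at 109 CPM in STK and 132 CPM in DMSO, a ratio of 0.829, and Rrm2 at 124 CPM in STK and 108 CPM in DMSO, a ratio of 1.15. The mitotic members furthest from equal were Birc5 (survivin), at 205 CPM in STK and 169 CPM in DMSO, a ratio of 1.21 (1.12 to 1.31), Cenpa, at 165 CPM in STK and 139.8 CPM in DMSO, a ratio of 1.18, and Mki67. In Treg, Mcm2 was at 76.7 CPM in STK and 61.4 CPM in DMSO, a ratio of 1.25, and Cenpf, a kinetochore protein, at 64.8 CPM in STK and 83.9 CPM in DMSO, a ratio of 0.773. Rrm1, the large subunit of the reductase, Nusap1, a spindle protein, and Aurkb, the kinase of the chromosomal passenger complex, had ratios of 0.849, 0.792 and 0.853 in Treg. In NK cells Mcm2 was at 60.8 CPM in STK and 86.2 CPM in DMSO, a ratio of 0.706 (0.593 to 0.841), so the direction of Mcm2 differed between Treg and NK cells. Pcna was at 199 CPM in STK and 159.5 CPM in DMSO, a ratio of 1.25, and Mcm3 at 133 CPM in STK and 162 CPM in DMSO, a ratio of 0.818, in NK cells, and Cdc20, Cenpa and Ccnb2 (cyclin B2) had ratios of 0.801, 1.23 and 1.12.

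Among types with a low cycling share the counts differed widely. In macrophages 3 of 35 measured members were at least 1.5-fold higher in STK and 5 lower, where 7.4% of all genes were higher and 14.2% lower, and Pcna was at 74.6 CPM in STK and 68.6 CPM in DMSO, a ratio of 1.09, and Cenpa at 50.6 CPM in STK and 43.8 CPM in DMSO, a ratio of 1.16. With doublets left out, 6 macrophage members were higher and 2 lower, and the ratio of summed UMIs was 1.17 for S-phase and 1.21 for mitotic members. The share of all genes past 1.5-fold with doublets left out is not given here. Doublet scores marked 3.70% of cycling macrophages in STK and 17.6% in DMSO, and 1.10% of the other macrophages in STK and 0.939% in DMSO. In neutrophils 15 of 28 measured members were at least 1.5-fold higher in STK and 3 lower, where 13.2% of all genes were higher and 25% lower, and the 5 richest cells held 77.1% of the mitotic UMIs in STK and 51.9% in DMSO. Mitotic members in neutrophils, 13 of 14 higher, summed to 707 CPM in STK and 307 CPM in DMSO, a ratio of 2.30 (1.91 to 2.80). Without the 2 richest cells of each library they stood at 310 CPM in STK and 169 CPM in DMSO. The neutrophil ratio was thus as high as the cDC2 ratio of 2.18, in a class read here as background. In plasmacytoid dendritic cells 14 of 35 measured members were at least 1.5-fold higher in STK and 1 lower, where 10.7% of all genes were higher and 7.31% lower. In non-classical monocytes 3 of 31 measured members were at least 1.5-fold higher in STK and 16 lower, where 10.5% of all genes were higher and 24% lower. In migratory dendritic cells 12 of 22 measured members were at least 1.5-fold higher in STK and 2 lower, where 12.6% of all genes were higher and 15% lower. The cycling shares of these types lay at or below that of neutrophils or had intervals that overlapped it.

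The counts in the other gates were as follows. In classical monocytes 4 of 35 measured members were at least 1.5-fold higher in STK and 3 lower, where 8.13% of all genes were higher and 12.5% lower. In B cells 5 of 27 measured members were at least 1.5-fold higher in STK and 3 lower, where 16% of all genes were higher and 17.1% lower. In cDC1 3 of 35 measured members were at least 1.5-fold higher in STK and 1 lower, where 11.6% of all genes were higher and 12.9% lower. Among T cells outside the named subsets 2 of 35 measured members were at least 1.5-fold higher in STK and 0 lower, where 7.97% of all genes were higher and 13.1% lower, although S-phase members there summed to 1488 CPM in STK and 1177 CPM in DMSO, a ratio of 1.26 (1.21 to 1.32). Doublet scores marked 4.20% of the cycling cells of that gate in STK and 10.8% in DMSO, and 2.26% of its other cells in STK and 2.10% in DMSO, and their part was not tested. Over all T cells 0 of 35 measured members were at least 1.5-fold higher in STK and 0 lower, where 7.43% of all genes were higher and 8.9% lower, and over ungated cells 1 of 35 measured members were at least 1.5-fold higher in STK and 0 lower, where 9.17% of all genes were higher and 10.1% lower. In the hepatocyte or tumour gate 1 of 35 measured members were at least 1.5-fold higher in STK and 0 lower, where 9.39% of all genes were higher and 6.05% lower. The 1 member there was Ccnd2, nearly absent from this type at 0.951 CPM in STK (16 UMIs) and 0.341 CPM in DMSO (8 UMIs), while Mki67 was at 109 CPM in STK and 129 CPM in DMSO, a ratio of 0.842 (0.794 to 0.893), and Cdc20 at 117 CPM in STK and 139 CPM in DMSO, a ratio of 0.842.

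**Figure D3:**
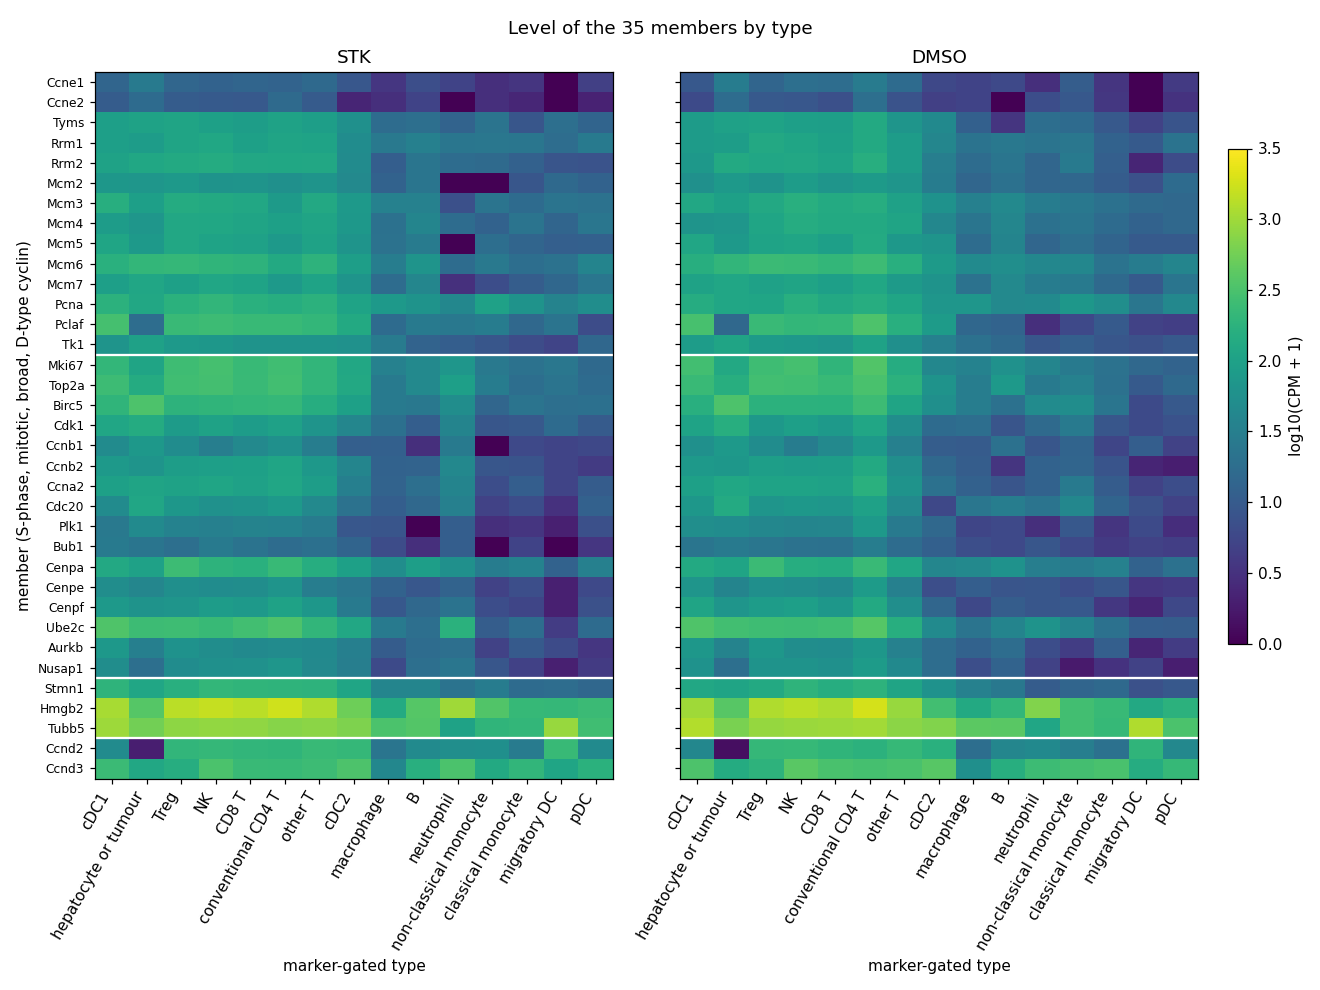
Level of the 35 members as log10(CPM + 1) (colour) by gated type (x axis) and member (y axis), STK in the left panel and DMSO in the right. T and NK cells, cDC1 and the hepatocyte or tumour gate are bright in both libraries for mitotic members, and Ccnd2 is dark in the hepatocyte or tumour gate at 0.951 CPM in STK and 0.341 CPM in DMSO.

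A few members differed in 1 direction in nearly every type, whatever the share of cycling cells, and were picked out after their values were seen. All types come from the same pair of libraries, so the types are not independent observations. Of 15 gated types, Stmn1, which encodes the microtubule-destabilising stathmin, was higher in STK in 15, with ratios of 1.03 to 2.66 and intervals above 1 in 8. Tubb5, a beta-tubulin, was lower in 15, with ratios of 0.708 to 0.989 and intervals below 1 in 10, or lower in 14 and higher in 1 after scaling by the median gene ratio of each type. Pcna was higher in 14 of 15, neutrophils being the exception, and Pclaf in 13. Ccnd2 (cyclin D2) was higher in 13 and lower in 2, or 14 and 1 after that scaling. Ccnd3, cyclin D3, was lower in 13 of 15, B cells and neutrophils being the exceptions. For Stmn1, Pcna, Pclaf and Ccnd3 that scaling left the counts as they were. Mki67, in contrast, was higher in 8 types and lower in 7, or 9 and 6 after scaling.

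In CD8 T cells Stmn1 was at 197 CPM in STK and 151 CPM in DMSO, a ratio of 1.30 (1.20 to 1.41). Tubb5 was at 824 CPM in STK and 959 CPM in DMSO, a ratio of 0.859 (0.830 to 0.888). Hmgb2, a chromatin protein abundant in dividing cells, was at 1392 CPM in STK and 1165 CPM in DMSO, a ratio of 1.19 (1.16 to 1.23), and it was higher in 12 of 15 types before and after scaling. Neutrophils, with few cycling cells, held Hmgb2 at 993 CPM in STK and 687 CPM in DMSO.

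The D-type cyclins differed from each other. Ccnd3 in CD8 T cells was at 237 CPM in STK (2054 UMIs) and 308 CPM in DMSO (2037 UMIs), a ratio of 0.770 (0.724 to 0.819). It was at 319 CPM in STK and 407 CPM in DMSO, a ratio of 0.783, in NK cells, at 149.6 CPM in STK and 182 CPM in DMSO, a ratio of 0.824, in Treg and at 40.8 CPM in STK and 55.1 CPM in DMSO, a ratio of 0.741, in macrophages. Ccnd2 was close between libraries in CD8 T cells, at 200.5 CPM in STK and 196 CPM in DMSO. It was slightly lower in NK cells, at 213 CPM in STK and 218 CPM in DMSO. In Treg it was at 203 CPM in STK and 215 CPM in DMSO. NK cells and Treg were the exceptions, as Ccnd2 was higher in STK in 13 of 15 types. Its ratios ran from 0.943 to 2.79, with intervals above 1 in 4 types and below 1 in 0. In macrophages Ccnd2 was at 21.8 CPM in STK and 17.5 CPM in DMSO, a ratio of 1.24. Over all kept cells it was at 91.6 CPM in STK and 68.7 CPM in DMSO, a ratio of 1.33. T cells made up 29.51% of kept cells in STK and 23.8% in DMSO, and the part of cell mix was not tested.

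**Figure D4:**
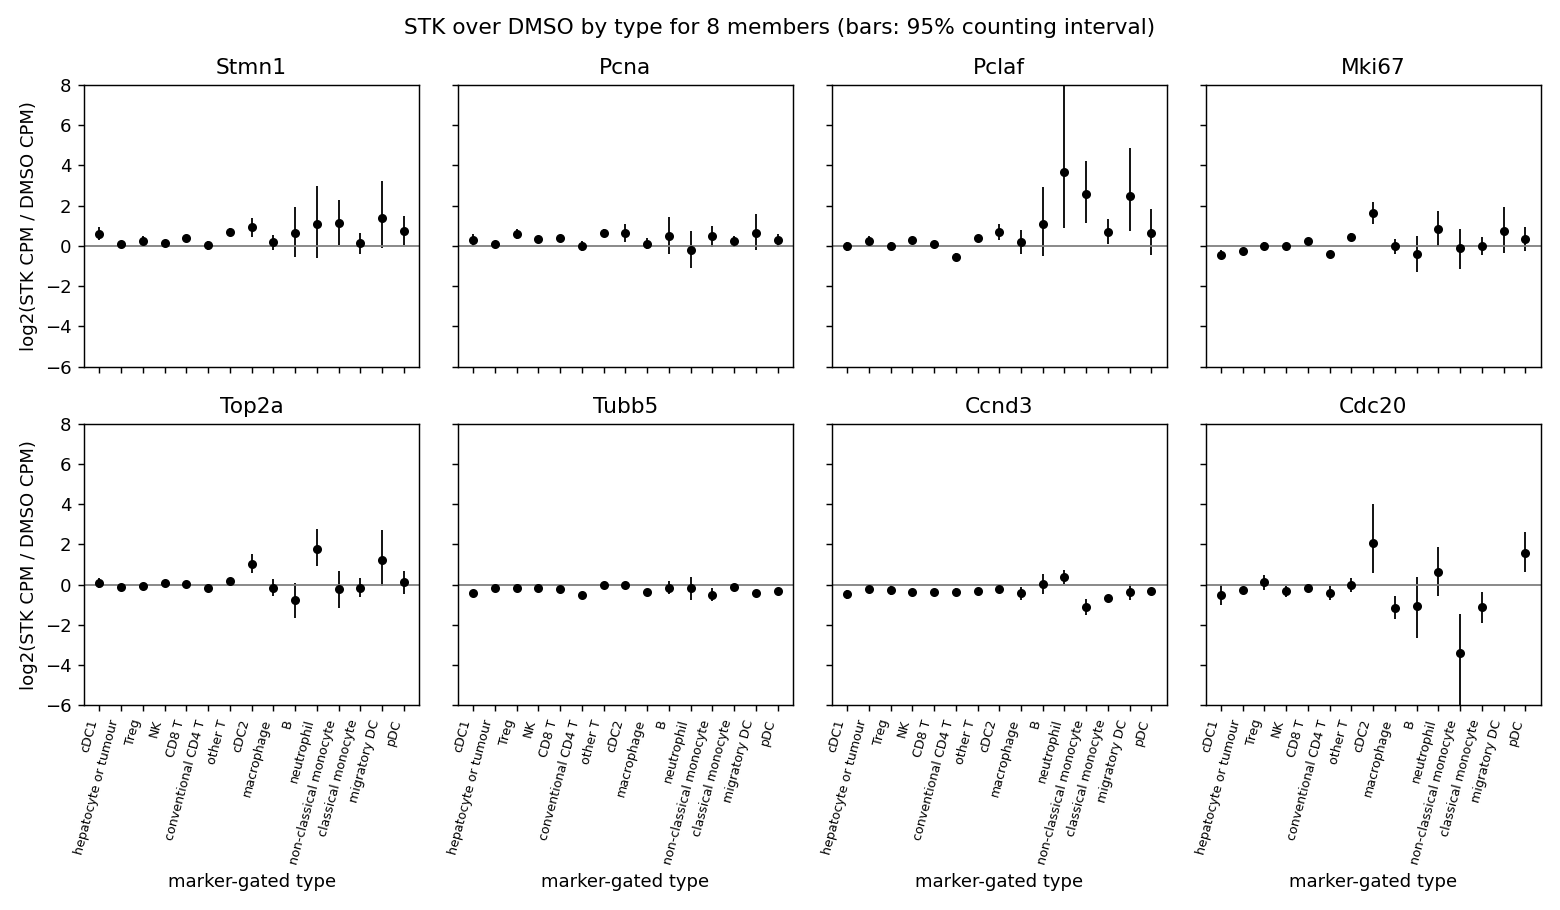
log2 of the STK over DMSO ratio of CPM (y axis) by gated type (x axis) for selected members, with 95% counting intervals from 1 library per group, so that points above 0 are higher in STK. Stmn1 lies above 0 in 15 of 15 types and Tubb5 below 0 in 15 (14 after scaling by the median gene ratio), while Mki67 lies on both sides.

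Within each sex some of these members gave other values. Ccnd3 in CD8 T cells was at 251 CPM in STK and 277 CPM in DMSO (0.907) in female cells, and at 202 CPM in STK and 289.6 CPM in DMSO (0.697) in male cells. Over all kept cells its ratio was 1.06 in female cells and 0.737 in male cells. Stmn1 in CD8 T cells was at 240.2 CPM in STK and 112 CPM in DMSO (2.14) in female cells and 204 CPM in STK and 174 CPM in DMSO (1.17) in male cells, higher in STK in both. Tubb5 in CD8 T cells was at 964 CPM in STK and 771 CPM in DMSO (1.25) in female cells and 849 CPM in STK and 1099 CPM in DMSO (0.773) in male cells, so its direction turned in female cells. Pcna in CD8 T cells was higher in both sexes, with ratios of 1.17 among female and 1.13 among male cells. The female CD8 T cells numbered 665 in STK and 93 in DMSO. The part of sex in these values was not tested.

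Members varied in how far they were confined to cycling cells. With each member left out of its own call, cycling CD8 T cells held 93.3% of Nusap1 UMIs in STK and 88.0% in DMSO. They held 88.4% of Cenpf UMIs in STK and 90.8% in DMSO, and 86.5% of the UMIs of Ccna2 (cyclin A2) in STK and 90.0% in DMSO. Pclaf was as confined, at 85.6% in STK and 90.1% in DMSO, and so was Rrm2, at 82.6% in STK and 88.3% in DMSO. The MCM subunits Mcm6 and Mcm4 were spread more widely, Mcm6 at 38.7% in STK and 41.8% in DMSO and Mcm4 at 42.0% in STK and 38.9% in DMSO. Pcna stood between, at 50.7% in STK and 55.3% in DMSO.

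The D-type cyclins were not concentrated in cycling CD8 T cells, which were 20.5% of all CD8 T cells in STK and 20.3% in DMSO. They held 11.7% of Ccnd2 UMIs in STK and 15.99% in DMSO, and 21.2% of Ccnd3 UMIs in STK and 17.6% in DMSO. Ccnd2 was at 139.6 CPM in STK and 186 CPM in DMSO in cycling cells, and at 271 CPM in STK and 248 CPM in DMSO in the other cells. Ccnd3 was lower in STK in both kinds of cell, at 248 CPM in STK and 296 CPM in DMSO in cycling cells and 238 CPM in STK and 353 CPM in DMSO in the others. Among restraints of the cycle, Btg1, an antiproliferative factor, was at 624 CPM in STK and 506 CPM in DMSO in cycling cells and 1487 CPM in STK and 1323 CPM in DMSO in the others. The CDK inhibitor Cdkn2c (p18) went the other way, at 62.7 CPM in STK and 55.3 CPM in DMSO in cycling cells and 11.7 CPM in STK and 12.1 CPM in DMSO in the others.

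**Figure D5:**
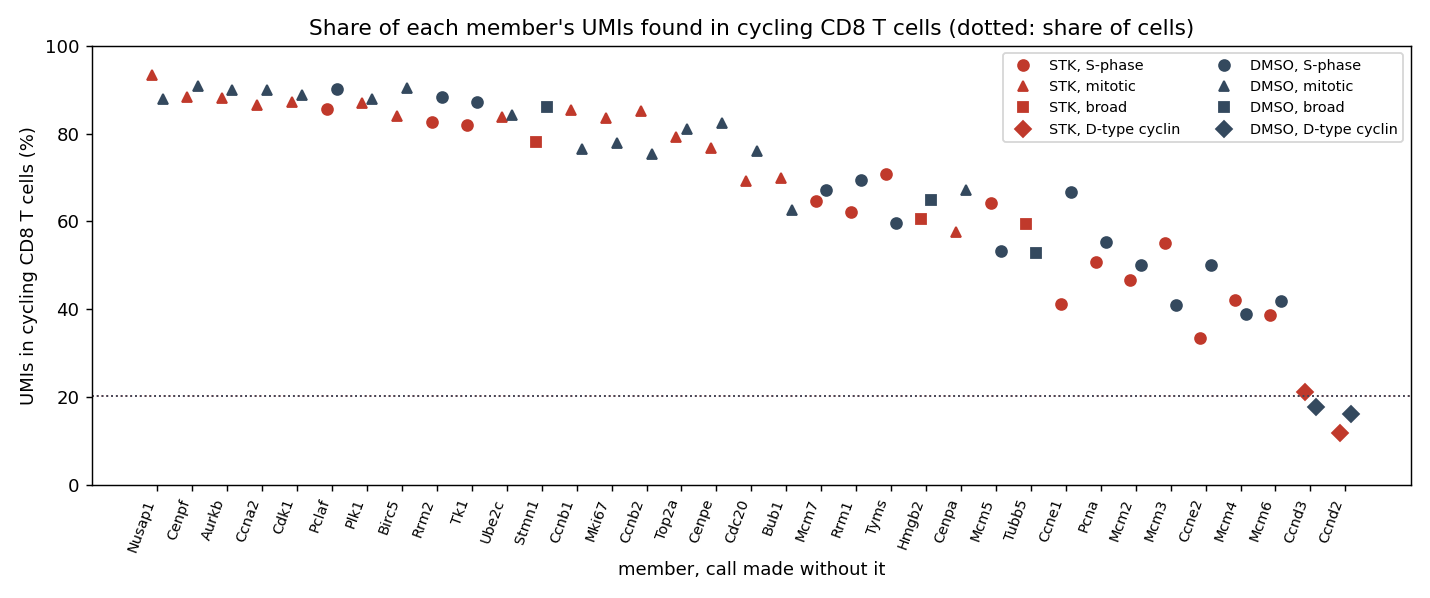
Percentage of each member's UMIs found in cycling CD8 T cells (y axis) by member (x axis), STK and DMSO as separate colours, with lines at the share of cells called cycling. Nusap1 is at 93.3% in STK and 88.0% in DMSO, and Ccnd2, at 11.7% in STK and 15.99% in DMSO, lies below the lines.

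Phase make-up over all cycling cells was close between libraries and varied by type. More mitotic than S-phase UMIs were held by 50.3% of all cycling cells in STK and 51.9% in DMSO, by 45.6% of cycling CD8 T cells in STK and 45.8% in DMSO, and by 48.0% of cycling NK cells in STK and 43.7% in DMSO. In cycling Treg the share was 45.3% in STK and 53.5% in DMSO, and in conventional CD4 T cells 59.1% in STK and 45.5% in DMSO, with overlapping intervals in both types. CD8 T cells with a UMI of Havcr2, the receptor TIM-3 found on exhausted cells, cycled at 18.8% in STK (9 of 48) and 30.6% in DMSO (15 of 49), and those without it at 20.5% in STK (342 of 1666) and 19.8% in DMSO (238 of 1199). Splits by Gzmk and Tcf7 were added after the data had been seen. The Havcr2, Gzmk and Tcf7 splits read these genes in the thinned counts, so cells without a UMI may still express them. Cells with a UMI of Gzmk, a granzyme, cycled at 23.7% in STK (130 of 548) and 29.2% in DMSO (100 of 343), and those without it at 19.0% in STK (221 of 1166) and 16.9% in DMSO (153 of 905). Cells with a UMI of Tcf7, a factor of naive and memory T cells, cycled at 12.3% in STK (30 of 243) and 9.05% in DMSO (18 of 199), and those without it at 21.8% in STK (321 of 1471) and 22.4% in DMSO (235 of 1049).

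Other genes of the cycle were counted in the same way. In CD8 T cells 0 of 28 other S-phase genes and 0 of 40 other mitotic genes were 1.5-fold higher, and 0 of either list were lower, where 9.12% of all genes were higher and 8.09% lower. In conventional CD4 T cells 9 of 28 and 9 of 40 were lower and 0 higher, where 10.6% of all genes were higher and 13.9% lower, among them Hells, a chromatin remodeller, at 46.9 CPM in STK and 74.1 CPM in DMSO, a ratio of 0.633 (0.472 to 0.845), and Mad2l1, a spindle checkpoint protein, at 35.7 CPM in STK and 65.1 CPM in DMSO, a ratio of 0.548 (0.393 to 0.757). In cDC2 10 of 26 S-phase genes were higher and 1 lower, and 19 of 34 mitotic genes were higher and 2 lower, where 12% of all genes were higher and 17.4% lower. Smc2, a condensin subunit, was at 66.8 CPM in STK and 36.1 CPM in DMSO, a ratio of 1.85 (1.22 to 2.88), in cDC2.

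Genes that restrain the cycle were read in the same way. In CD8 T cells 4 of 17 were 1.5-fold higher and 0 lower, where 9.12% of all genes were higher and 8.09% lower. Cdkn1a, the CDK inhibitor p21, was at 132 CPM in STK and 69.3 CPM in DMSO, a ratio of 1.91 (1.71 to 2.13). The antiproliferative genes Tob1 and Btg2 were at 53.0 CPM in STK and 30.1 CPM in DMSO, a ratio of 1.76, and at 428 CPM in STK and 279 CPM in DMSO, a ratio of 1.53. Klf2, a quiescence factor of T cells, was at 640.1 CPM in STK and 924 CPM in DMSO, a ratio of 0.693 (0.668 to 0.718). In NK cells 3 of 16 were higher and 1 lower, where 8.5% of all genes were higher and 11.1% lower, with Btg2 at 644 CPM in STK and 391.7 CPM in DMSO, a ratio of 1.64. In conventional CD4 T cells 2 of 17 were higher and 0 lower, where 10.6% of all genes were higher and 13.9% lower. Btg2 was at 714 CPM in STK and 325 CPM in DMSO there, a ratio of 2.20 (1.99 to 2.43). In Treg 1 of 17 were higher and 2 lower, where 9.16% of all genes were higher and 11% lower, and Cdkn1a ran the other way, at 138 CPM in STK and 218 CPM in DMSO, a ratio of 0.632 (0.534 to 0.746). In the remaining T cells 2 of 16 were higher and 3 lower, where 7.97% of all genes were higher and 13.1% lower. In cDC2 3 of 14 were higher and 2 lower, where 12% of all genes were higher and 17.4% lower. Cdkn1a in cDC2 was at 879 CPM in STK and 450 CPM in DMSO, a ratio of 1.96 (1.74 to 2.20). In the hepatocyte or tumour gate 4 of 17 were higher and 0 lower, where 9.39% of all genes were higher and 6.05% lower. A separate list held 9 regulators of G1, the phase before S-phase. In CD8 T cells 1 of 9 was higher and 0 lower, where 9.12% of all genes were higher and 8.09% lower. They summed to 334.6 CPM in STK and 334.4 CPM in DMSO. Among them Cdk6, a kinase partner of D-type cyclins, was at 48.1 CPM in STK and 62.8 CPM in DMSO, a ratio of 0.766, in CD8 T cells. Of 12 histone genes 2 were lower and 0 higher in CD8 T cells, where 9.12% of all genes were higher and 8.09% lower, with Hist1h2ae at 255 CPM in STK and 434 CPM in DMSO, a ratio of 0.588, a gene with near-identical copies whose count is uncertain. Hepatocyte RNA, summed over 12 genes such as Trf and Ttr, was at 756 CPM in STK and 484 CPM in DMSO in CD8 T cells, and its part in these values was not tested.

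Genes outside the set were ranked by Pearson's r of log2(CPM + 1) with the mitotic sum over 16 types in both libraries, 32 values that share depth and library. Among 11241 genes, Cdca8, a subunit of the chromosomal passenger complex, came first with r = 0.984, followed by Kif11, a spindle motor, with 0.974. Tacc3, Prc1, Cdca3, Cenpw, Tpx2, Cip2a, Shcbp1 and Spc24 followed, down to 0.951. Of the members, Ccna2 reached 0.981, but it is part of the mitotic sum, so this value is partly a correlation with itself. Ccnd3 and Ccnd2, which are outside the sum, were at 0.365 and 0.149.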

How the data were processed

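The authors deposited unnormalized UMI counts for each gene and cell barcode, written by Cell Ranger 6.0.2 per the file headers, on GRCm38 per the submitters' processing notes; the annotation release is not given in the sources used here. UMIs were summed per library and gated type and scaled to CPM. The 35 members, the lists and the gates were chosen with earlier results of these data known. Shares have exact Clopper-Pearson, levels exact Poisson and ratios conditional binomial 95% intervals, for counting error only. Genes were measured with 10 or more UMIs over both libraries, and a library with 0 UMIs was set to a floor of 3 in ratios. Doublets were kept in the main values: Scrublet (scanpy 1.11.5) with its own threshold called 0 STK and 217 DMSO cells, so a fixed score, chosen after seeing this, marked 3.92% of STK and 3.55% of DMSO cells and was used as an alternative. Named genes were, per main type, up to 3 S-phase and 3 mitotic members furthest from equal with 50 CPM and 50 UMIs in the higher library, Mki67, Top2a, Ccnd2 and Ccnd3 always, up to 4 per other list, and the 10 most alike non-members; genes named beyond this, and conventional CD4 T cells and cDC2, were chosen after their values were seen. Alternatives covered the threshold, thinning, gates, sex, doublets, scaling and the minimum of UMIs. The counting steps were tested on simulated data. Tools were numpy 2.4.6, scipy 1.17.1 and pandas 2.3.3. Kept cells held 79681844 UMIs in STK and 78065924 UMIs in DMSO.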

Additional observations from a re-analysis of the deposited data

Results flagged for a closer look

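The cycling share of all T cells differed between libraries in opposite directions within the sexes. Among female T cells it was 27.9% in STK (327 of 1172) and 18.4% in DMSO (35 of 190), a ratio of 1.51 (1.07 to 2.21). Among male T cells it was 19.5% in STK (110 of 564) and 26.2% in DMSO (290 of 1106), a ratio of 0.744 (0.592 to 0.929). T cells with no Xist or Y-linked UMI, left out here, cycled at 10.04% in STK and 13.6% in DMSO. The difference between the sexes was not tested, and female and male cells come from different animals in numbers the labels do not give. Median depths ran the same way as the shares, at 4520 UMIs in STK and 3298.5 UMIs in DMSO for female T cells and 3779 UMIs in STK and 4601.5 UMIs in DMSO for male T cells before thinning, and the part of depth was not tested.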

How the results depend on the processing

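Of 342 recomputed values, 241 moved within their counting interval or 1.5 times their count, and 101 did not. Of these, 8 are marked reversed: they crossed 1 where the interval of the value given in the results excluded 1. Other values also crossed 1, from values whose intervals included it. All values are ratios of STK over DMSO unless named, and the cause was not tested.  In female cells the cycling share ratio was 1.51 in all T cells, 1.71 in CD8 T cells, 1.26 in conventional CD4 T cells (reversed) and 1.16 when standardised for composition. In male cells it was 0.790 over all kept cells, 0.744 in all T cells, 0.801 in CD8 T cells and 0.804 standardised. With sex set by the larger count, chosen after seeing the data, the female ratios were 1.55, 1.74, 1.28 (reversed) and 1.14, and the male ratios 0.801, 0.750, 0.793 and 0.820, in the same order. Summed S-phase UMIs over all kept cells stood at 1.09 among female cells and 0.896 among male cells (reversed), and mitotic UMIs 1.14 (reversed) and 0.786. Mitotic UMIs had ratios of 0.834 in male CD8 T cells (reversed) and 1.17 in female hepatocyte or tumour cells (reversed). In conventional CD4 T cells S-phase ratios were 1.60 in female (reversed) and 0.612 in male cells, and mitotic ratios 0.941 and 0.943. Members past 1.5-fold over all kept cells were 3 higher and 1 lower in female and 1 higher and 1 lower in male cells, and in conventional CD4 T cells 10 higher and 5 lower in female and 13 lower in male cells. The share of all genes past 1.5-fold within each sex is not given here, so these counts have no background to be read against. Calling at 5 UMIs gave a ratio of 1.10 over all kept cells and 57.5% of STK and 58.8% of DMSO cycling cells with more mitotic UMIs; thinning to 2000 UMIs gave 52.7% and 54.9%. A gate of 3 markers gave mitotic ratios of 0.863 in conventional CD4 T cells and 3.54 in cDC2. Scaling by the median gene ratio gave 1.06 for S-phase and 1.00 for mitotic UMIs over all kept cells (the mitotic ratio reversed). The cDC2 members counted as lower numbered 0 at a minimum of 50 UMIs and 2 with none. No paired analysis was possible because each group is 1 library. Leaving out doublets moved 5 values, all in macrophages and Treg, given with those types. Few cells limit the precision in cDC1, cDC2, B cells and neutrophils.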
